A study of Mus musculus with 3 samples.

Results

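The miR-30 family was followed in the small RNAs of mouse liver through its 5 members, miR-30a-5p, miR-30b-5p, miR-30c-5p, miR-30d-5p and miR-30e-5p, and through the opposite (3p) arms of the same hairpins. Members were chosen by locus: every read was kept that starts at the 5′ end of an arm of the precursors Mir30a, Mir30b, Mir30c-1, Mir30c-2, Mir30d or Mir30e and matches it. These are 6 of the 1174 mouse miRNA precursors searched and 11 of the 420 distinct arms found, because Mir30c-1 and Mir30c-2 give the same 5p arm. C57BL/6 mice had received the vector scAAV9 (self-complementary adeno-associated virus of serotype 9), and liver was taken 4 weeks later. The vector carried no Tough Decoy in the mock group, a decoy against miR-122 in the TuD-miR-122 group, or a decoy against let-7 in the TuD-let-7 group, so that all 3 groups had received scAAV9. A Tough Decoy (TuD) is an RNA with exposed binding sites that captures a chosen miRNA, and miR-30 is a target of neither. Each group is 1 library, neither the age nor the number of mice behind it is given in the sources used here, and no group has a replicate check: intervals below are 95% intervals that cover counting error only, and no test between groups was made.

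A miRNA hairpin is cut into a short duplex, and as a rule 1 strand is kept by an Argonaute protein while the other, the passenger strand, is degraded. The kept strand finds its targets mainly through its seed, bases 2 to 8. The miR-30 family is expressed in many tissues and is known for restraining the shift of epithelial cells towards a mesenchymal state and, in liver, for miR-30c acting on Mttp, which loads lipid onto lipoproteins. The mature sequences are shown because the shared seed defines the family and because single bases near the 3′ end matter for the reads described further on. Sequences are from RefSeq (GRCm38.p6), which gave the mature arms for 4 of the 6 precursors, and capitals mark the seed.
miR-30a-5p, chr1:23272274-23272295, plus strand: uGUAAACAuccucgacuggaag
miR-30c-5p, chr1:23291714-23291736, plus strand, and chr4:120769584-120769606, minus strand: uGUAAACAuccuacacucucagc
miR-30e-5p, chr4:120772660-120772681, minus strand: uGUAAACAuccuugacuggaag
miR-30a-3p, chr1:23272315-23272336, plus strand: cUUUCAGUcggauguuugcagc
miR-30e-3p, chr4:120772618-120772639, minus strand: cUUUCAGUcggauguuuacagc
miR-30c-2-3p, chr1:23291754-23291775, plus strand: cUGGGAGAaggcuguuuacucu
miR-30c-1-3p, chr4:120769546-120769567, minus strand: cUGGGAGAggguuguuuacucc
The 5p arms shown share the seed GUAAACA. miR-30a and miR-30e differ by a single base on each arm, C13T on the 5p arm and G18A on the 3p arm (positions counted from 1 at the 5′ end, the base of miR-30a first, written as DNA). Their 3p arms share the seed UUUCAGU, whereas the 3p arms of Mir30c-1 and Mir30c-2 share UGGGAGA. The pair from the Mir30c precursors differs by G9A, T12C and C22T, with the base of miR-30c-1-3p first, so that only their 3p arms tell these 2 loci apart. Of the other miRNAs in RefSeq, miR-384-5p has the 5p seed as well, and it had 0 reads in all 3 libraries. The precursor Mir30f, annotated at the position of Mir30e on the opposite strand, also had 0 untailed reads in each library.

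The 6 precursors lie in 3 pairs (GENCODE release 21, GRCm38). Mir30a (chr1:23272269-23272339, plus strand) lies outside annotated genes and Mir30c-2 (chr1:23291701-23291784, plus strand) in an exon of the lincRNA gene Gm27028, with 19361 bases between them. Mir30c-1 (chr4:120769534-120769622) and Mir30e (chr4:120772606-120772697), both on the minus strand, lie 2983 bases apart in introns of Nfyc, the gene of a subunit of the CCAAT-binding factor NF-Y. Mir30b (chr15:68337415-68337510, outside annotated genes) and Mir30d (chr15:68341208-68341289, in an exon of the lincRNA gene Gm20732), both on the minus strand, lie 3697 bases apart.

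Sequencing gave 3450317 reads for mock, 3681585 with TuD-miR-122 and 2066892 with TuD-let-7, and values below that come as 3 numbers follow this order. Levels are RPM, reads per 1000000 non-target miRNA reads, that is, reads of miRNA loci other than the decoys' targets miR-122 and let-7, which numbered 1377809, 1452498 and 487713. A level of 3 reads, the limit that a count of 0 allows, was 2.18, 2.07 and 6.15 RPM. Of the markers of the labelled tissue, the hepatocyte miRNA miR-122-5p, itself the target of 1 decoy and so left out of the scale, had 740338, 594862 and 2002020 reads per 1000000 non-target miRNA reads. Against mock, the other 3 hepatocyte miRNAs listed were at 0.800 (miR-192-5p), 0.865 (miR-194-5p) and 0.818 (miR-148a-3p) with TuD-miR-122 and at 1.02, 1.35 and 0.864 with TuD-let-7. Here and below, a miRNA is called past 2-fold when it has at least 100 reads over both libraries and the interval of its ratio lies wholly above 2 or below 0.5. The libraries differed in markers of other tissues: all 5 skeletal muscle miRNAs listed were past 2-fold lower than mock in both decoy libraries, with summed levels of 10601 RPM in mock, 994 with TuD-miR-122 and 226 with TuD-let-7, where miR-133a-5p was at 0. All 4 pancreatic miRNAs listed were past 2-fold higher with TuD-miR-122 than in mock, 1612 against 119 RPM in sum. With TuD-let-7 they had 162 RPM in sum. Only 1 of the 4 had the 100 reads needed in that comparison, and it was at 2.02 times mock, not past 2-fold. On this scale, none of the immune (5), erythroid (3), endothelial (2) or stromal (5) markers was past 2-fold in either decoy library. The immune miR-155-5p, however, was at 75.5 RPM in mock and 32.8 with TuD-let-7, a ratio of 0.435 (0.240 to 0.740). Per read of the whole library, every ratio to mock with TuD-let-7 is 0.591 times as large. The markers were not counted that way, so these counts hold for the present scale alone. The part of the muscle and pancreatic RNA in the miR-30 values was not tested. In bulk liver, fewer cells of a type and less RNA per cell cannot be told apart.

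The 5 members together made up 5.01% to 6.35% of the non-target miRNA reads, and from most to least abundant their order was miR-30a, e, c, d, b in each library. The family sum was 54693 RPM in mock (75357 reads, 5.47% of the non-target miRNA reads), 50119 RPM with TuD-miR-122 (72798 reads, 5.01%) and 63513 RPM with TuD-let-7 (30976 reads, 6.35%). miR-30a-5p, the most abundant member, had 20245 RPM in mock (95% interval 20011 to 20482), 18403 with TuD-miR-122 (18185 to 18623) and 27200 with TuD-let-7 (26746 to 27661). It ranked 12th, 13th and 8th among the non-target miRNA arms, as the 3 libraries are ordered here. miR-30e-5p had 13385, 12260 and 14671 RPM, and on this scale it was highest with TuD-let-7 as well. miR-30c-5p, the sum of Mir30c-1 and Mir30c-2, had 10332 RPM in mock, 7888 with TuD-miR-122 and 9873 with TuD-let-7, lowest with TuD-miR-122 on this scale, whereas as a share of all reads it was 0.413%, 0.311% and 0.233%, lowest with TuD-let-7. miR-30d-5p had 6528, 6942 and 7646 RPM, and miR-30b-5p, the least abundant member, 4123, 4490 and 4031 RPM. The counting intervals of neighbours in the order did not overlap in any library, and the spread between animals was not measured. A further 110, 200 and 45 reads matched only the first 18 bases, which miR-30b and miR-30c share, and were counted in the family sum alone.

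**Figure D1:**
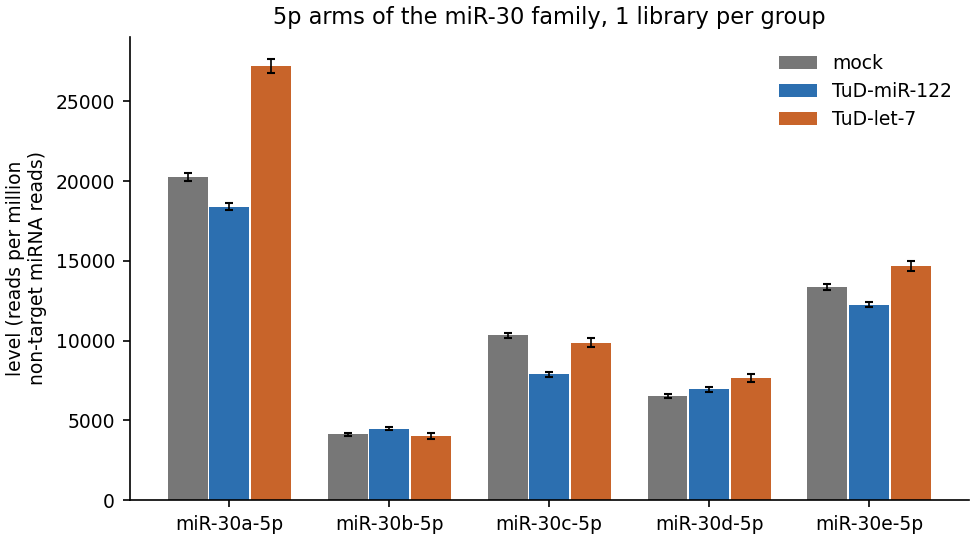
Levels of the 5 members (bars, reads per 1000000 non-target miRNA reads) in the 3 libraries; error bars are 95% counting intervals. miR-30a-5p was the tallest bar in each library, at 20245, 18403 and 27200 RPM, but as a share of all reads it was lower with TuD-let-7 than in mock.

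No member differed by 2-fold between libraries. Against mock, the ratios with TuD-miR-122 were 0.909 for miR-30a-5p (0.894 to 0.924), 0.916 for miR-30e-5p, 0.763 for miR-30c-5p (0.745 to 0.783), 1.06 for miR-30d-5p and 1.09 for miR-30b-5p. Their median was 0.916, and that of all 227 non-target miRNAs tested was 0.986. By the rule given above, 0 of 5 members were past 2-fold, against 42 of the 227 (18.5%). miR-30c-5p had the lowest ratio of the members, and 46 of the 227 miRNAs had a lower one.

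In TuD-let-7 the ratios to mock were 1.34 for miR-30a-5p (1.32 to 1.37), 1.17 for miR-30d-5p, 1.10 for miR-30e-5p, 0.978 for miR-30b-5p and 0.956 for miR-30c-5p (0.925 to 0.987). The family sum was 1.16 times that of mock (1.15 to 1.18) on this scale, but 0.686 times per read of the whole library and 0.736 times per miRNA read. Those scales moved every ratio to mock by -0.76 and -0.66 on the log2 scale, and with them miR-30a, d and e were below mock as well. Again 0 of 5 members were past 2-fold, where 15 of 193 non-target miRNAs tested were (7.77%). The median of the members was 1.10 and that of the 193 was 0.983. In the comparison of the decoy libraries with each other, without mock, 0 of 5 members were past 2-fold against 43 of 213 (20.2%). There miR-30a-5p was 1.48 times as high with TuD-let-7 as with TuD-miR-122 (1.45 to 1.51), miR-30c-5p 1.25 times and miR-30b-5p 0.898 times.

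**Figure D2:**
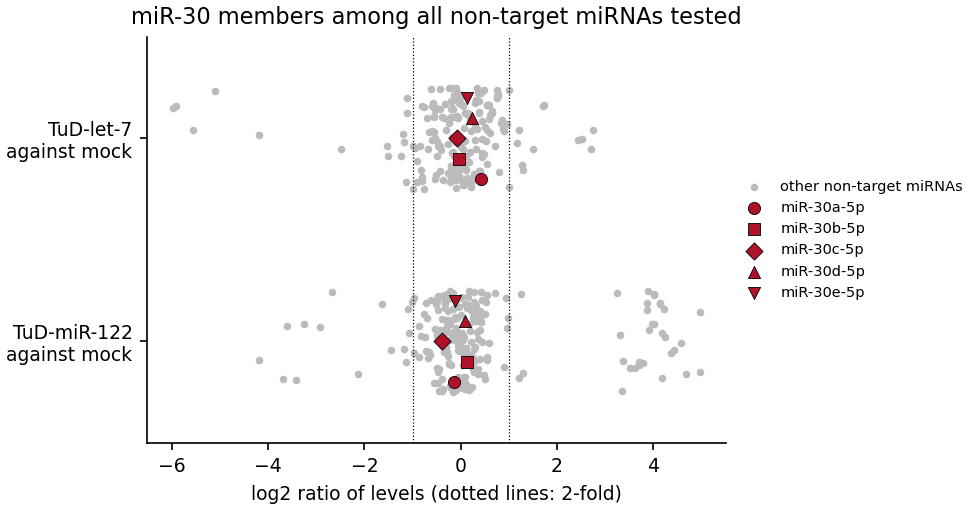
Log2 ratio to mock (horizontal axis) of the 5 members (red symbols) and of all other non-target miRNAs tested (grey points, spread vertically at random) in the 2 decoy libraries; dotted lines mark 2-fold. The members lie between 0.763 and 1.34 times mock, inside the lines, where 18.5% and 7.77% of the miRNAs were past 2-fold; miR-133a-5p, with 0 reads with TuD-let-7, is not drawn there.

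Within the family the composition shifted between the libraries, which no scale can alter. miR-30a-5p was 37.0% of the family reads in mock, 36.7% with TuD-miR-122 and 42.8% with TuD-let-7. Per read of miR-30c-5p there were 1.96 reads of miR-30a-5p in mock, 2.33 with TuD-miR-122 (2.28 to 2.38) and 2.76 with TuD-let-7 (2.67 to 2.85). For the neighbours on chromosome 15, miR-30b-5p per miR-30d-5p was 0.632, 0.647 and 0.527, lowest with TuD-let-7. miR-30c-5p per miR-30e-5p, which come in part from the same Nfyc introns, was 0.772, 0.643 and 0.673, highest in mock.

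As a list to read the family against, 13 other abundant liver miRNAs from the miR-192, miR-194, miR-148, miR-21, miR-22, miR-101, miR-29, miR-26, miR-378, miR-103 and miR-802 families were counted by the same rule. In TuD-miR-122 none of the 13 was past 2-fold, and their median ratio was 0.867. In TuD-let-7 1 of 13 was past 2-fold and lower, and the median was 1.09. That miRNA was miR-802-5p, named here after its values were seen, with 1131 RPM in mock, 575 with TuD-miR-122 and 201 with TuD-let-7. The miRNAs whose pair of log2 ratios to mock lay nearest to that of the family sum (-0.13 and 0.22), among 44 with at least 1000 reads in every library, were miR-101b-3p (-0.09 and 0.29), miR-145a-5p (-0.27 and 0.32) and miR-101a-3p (-0.21 and 0.39). Both ratios share the mock library, and likeness over 3 libraries is a description only.

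Reads of the 5p arm outnumbered those of the 3p arm on every precursor and in every library, and the precursors differed in how strongly. The 3p arms together had 1333 reads in mock, 1106 with TuD-miR-122 and 473 with TuD-let-7. Mir30a gave 43.4 reads of the 5p arm per 3p read in mock (40.2 to 47.1), 55.1 with TuD-miR-122 (50.4 to 60.4) and 66.7 with TuD-let-7 (58.0 to 77.1). Mir30e gave 55.4, 60.2 and 69.5, and Mir30c-1 and Mir30c-2 together gave 52.3, 45.5 and 34.6. These are reads at the most frequent start of each arm, and for Mir30a the choice moves the ratio by over 1.5 times: with starts within 2 nt it was 25.4 (23.95 to 27.02), 31.2 and 35.1, while that of Mir30e was 52.5, 58.0 and 71.6. The chromosome 15 pair was more one-sided. Mir30b gave 203, 192 and 140 reads of the 5p arm per 3p read, from 28, 34 and 14 reads of miR-30b-3p. Mir30d gave 155, 259 and 207, from 58, 39 and 18 reads of miR-30d-3p, and its value with TuD-miR-122 was 162 with starts within 2 nt. In mock, the intervals of Mir30b (140 to 306) and Mir30d lay wholly above those of the other precursors. For comparison, 62 other precursors had both arms found and at least 1000 reads on their major arm in mock. Their median was 134 reads of the major arm per read of the minor arm. Of these 62, 46 were more one-sided than Mir30a and 27 more than Mir30b. Precursors whose minor arm had under 10 untailed reads over the 3 libraries are not among them, so the most one-sided ones may be missing.

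**Figure D3:**
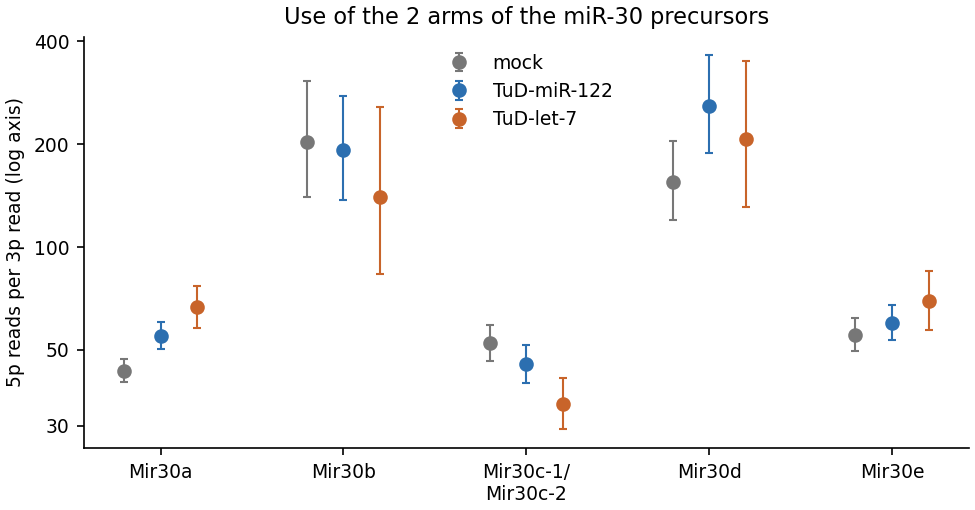
Reads of the 5p arm per read of the 3p arm (vertical log axis) for each precursor, Mir30c-1 and Mir30c-2 summed, in the 3 libraries; bars are 95% counting intervals. Mir30b and Mir30d lie highest in each library, Mir30a, counted at the most frequent starts, runs from 43.4 in mock to 66.7 with TuD-let-7, and the Mir30c precursors from 52.3 down to 34.6.

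Against mock, the arm ratios of Mir30a and of the Mir30c precursors lay in opposite directions, for the Mir30c precursors beyond counting error with TuD-let-7 alone. For Mir30a the 5p-to-3p ratio was 1.27 times that of mock with TuD-miR-122 (1.12 to 1.43) and 1.53 times with TuD-let-7 (1.30 to 1.81). For the Mir30c precursors it was 0.869 times that of mock (0.728 to 1.04) and 0.662 times (0.536 to 0.820). For Mir30e the folds were 1.09 (0.925 to 1.28) and 1.25 (1.001 to 1.58). With starts within 2 nt the Mir30a folds were 1.23 (1.12 to 1.34) and 1.38 (1.23 to 1.56) and those of the Mir30c precursors 0.873 and 0.661. With at least 50 reads on each arm in both libraries, 3 of these 5 sets of precursors could be counted in each comparison. Of them 0 were past 2-fold with TuD-miR-122, as were 0 of 30 other precursors (0%), and 0 were with TuD-let-7, as were 0 of 22 others (0%). The Mir30c fold with TuD-let-7 had 3 of the 22 others below it, and the Mir30a fold 17 of the 22. With TuD-miR-122 the Mir30c fold had 12 of the 30 others below it, and the Mir30a fold 23 of the 30.

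The 3p arms of the Mir30c loci differed in reads. miR-30c-2-3p, from chromosome 1, had 249, 231 and 134 reads, and miR-30c-1-3p, from the Nfyc intron, had 23, 21 and 5. The ratio was 10.8 in mock (7.05 to 17.4), 11 with TuD-miR-122 (7.03 to 18.1) and 26.8 with TuD-let-7 (11.2 to 83.9), intervals that all overlap. Per non-target miRNA read, miR-30c-2-3p was 1.52 times as high with TuD-let-7 as in mock (1.22 to 1.88), while miR-30c-5p was at 0.956. Its neighbour on chromosome 1, miR-30a-3p, was at 0.876 (0.743 to 1.03), although miR-30a-5p was at 1.34. miR-30e-3p, with 333, 296 and 103 reads, was at 0.874 (0.694 to 1.09). For Mir30a, and for Mir30c-2 beside the joint 5p arm, the intervals of the ratios of both arms did not overlap, in opposite directions. These ratios count only reads without a mismatch. With 1 mismatch allowed, miR-30a-5p had 27.1% more reads with TuD-let-7 and 8.99% more in mock. The gain of its 3p arm is not given here.

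The members ended at different lengths. Starting from the same 5′ end, miR-30a, d and e were most often 24 nt long, miR-30c 23 or 24 nt, and miR-30b 22 nt. The most frequent forms are given to show where the ends fall. Letters are as in the reads, and capitals mark bases that do not match the precursor.
miR-30a-5p, 24 nt: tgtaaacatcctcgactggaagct
miR-30a-5p, 23 nt: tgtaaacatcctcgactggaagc
miR-30a-5p, 21 nt: tgtaaacatcctcgactggaa
miR-30c-5p, 24 nt: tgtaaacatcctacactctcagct
miR-30c-5p, 23 nt: tgtaaacatcctacactctcagc
miR-30e-5p, 24 nt: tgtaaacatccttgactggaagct
miR-30e-5p, 24 nt and a tail: tgtaaacatccttgactggaagctT
The 24-nt form of miR-30a-5p made up 28.4% of its reads in mock, 24.5% with TuD-miR-122 and 23.1% with TuD-let-7, and the 23-nt form 21.8%, 20.5% and 17.1%. Both are longer than the RefSeq mature sequence of 22 nt, whose exact form had 9.52%, 12.5% and 10.5%. The 24-nt form of miR-30e-5p held 32.7%, 31.1% and 27.5% of its reads. For miR-30c-5p the 24-nt form held 33.6%, 37.2% and 28.9%, and the 23-nt form, the RefSeq one, 34.5%, 28.9% and 36.3%, so which was the most frequent depended on the library. miR-30b-5p was the most uniform member: its untailed 22-nt form held 76.9%, 79.1% and 76.2% of its reads, and its 21-nt form 12.7%, 9.86% and 13.6%. miR-30d-5p was the most spread out, with 27.8% of its mock reads at 24 nt, 17.2% at 23, 10.3% at 22, 11.5% at 21 and 9.33% at 20 nt, all untailed.

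**Figure D4:**
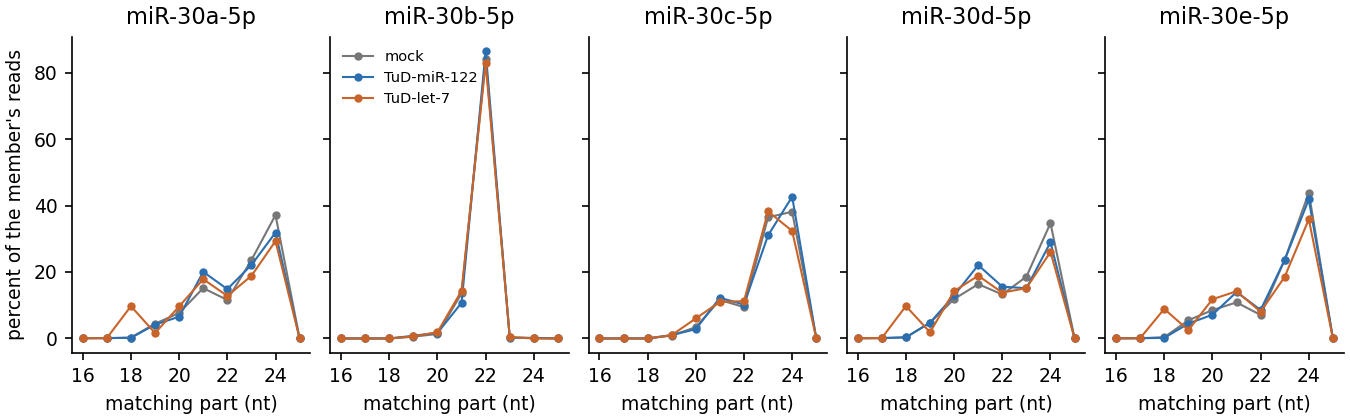
Share of each member's reads (vertical axis) by the length of the part that matches the precursor (horizontal axis, nt) in the 3 libraries. miR-30b-5p peaks at 22 nt and the others at 23 or 24 nt, with a smaller peak of miR-30a, d and e at 21 nt in each library. With TuD-let-7 alone, miR-30a, d and e also peak at 18 nt, at 9.72%, 9.76% and 8.89%. All of these reads are longer than 18 nt, their next base not matching the precursor.

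A tail was defined as 1 to 5 bases at the 3′ end that do not match the precursor, so base-call errors count as tails, too. In mock, 23.0% of miR-30a-5p reads were tailed (22.5 to 23.5), 21.9% of miR-30d-5p, 25.1% of miR-30e-5p, 16.2% of miR-30c-5p and 9.45% of miR-30b-5p. Most tails were a single base: for miR-30a-5p a single A made up 7.55% of reads and a single T 4.88%, T standing for U in the RNA. Tails of only T were most frequent on miR-30e-5p, at 10.5% in mock, and least on miR-30b-5p, at 2.64%. In TuD-miR-122 the tailed shares were 22.1%, 20.3%, 25.3%, 18.1% and 10.3% in the same order. Among the members, 0 of 5 differed from mock by over 5 percentage points, against 9 of 74 non-target miRNAs (12.2%). A matching part under 21 nt, counted as trimmed, was found in 12.5% of miR-30a-5p reads in mock and 11.1% with TuD-miR-122. Here, too, 0 of 5 members differed by over 5 points, against 2 of 74 miRNAs (2.7%).

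By the definitions above, miR-30a, d and e had more tailed and more trimmed reads in TuD-let-7 than in mock. The tailed share of miR-30b was 9.45% in mock and 9.46% with TuD-let-7. These differences depend on the definitions: among untailed reads alone, the trimmed shares of miR-30a, d and e were lower than in mock. With tails that mostly match the precursor taken as substitutions, the tailed share of the 5 members was 15.2% in both libraries. The tailed share was 31.9% for miR-30a-5p (31.1 to 32.7), 31.03% for miR-30d-5p, 33.7% for miR-30e-5p, 20.1% for miR-30c-5p and 9.46% for miR-30b-5p. The trimmed share was 21.2% against 12.5% in mock for miR-30a-5p, 26.1% against 17.0% for miR-30d-5p and 23.3% against 14.5% for miR-30e-5p. It was 7.02% against 4.26% for miR-30c-5p and 2.49% against 1.90% for miR-30b-5p. By the rule of over 5 points with intervals that do not overlap, 3 of 5 members passed in tailed share, against 21 of 49 non-target miRNAs tested (42.9%). In trimmed share 3 of 5 passed as well, against 20 of 49 (40.8%), so passing was common among the miRNAs of this library.

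The added tails were not runs of A or T. On miR-30a-5p, tails of only A were 7.92% in mock and 7.81% with TuD-let-7, tails of only T were 8.22% and 6.20%, and tails of mixed bases were 6.06% and 16.7%. miR-30d-5p had 6.74% and 16.9% of mixed tails, miR-30e-5p 5.64% and 15.7%, miR-30c-5p 3.44% and 6.67%, and miR-30b-5p 1.80% and 1.73%. Reads whose matching part ended at 18 nt, nearly all of them tailed, were 0.265% of miR-30a-5p reads in mock and 9.72% with TuD-let-7. The most frequent of these tails repeated the precursor after its first base: the tail TAAGC followed 3.30% of miR-30a-5p reads with TuD-let-7 and 0.0466% in mock.

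Those reads carry a substitution at position 19. Among reads that match the first 22 nt of miR-30a-5p exactly or with 1 substitution of that kind, G19T made up 16.2% with TuD-let-7, 0.277% in mock and 0.152% with TuD-miR-122. For miR-30d-5p it was 14.7%, 0.398% and 0.199%, and for miR-30e-5p 15.5%, 0.448% and 0.204%. miR-30b and miR-30c have another base there. Reads of 24 nt or longer with G19T have a tail of over 5 bases and entered none of the levels, lengths or tails above. The substitution was not particular to the family: in 13 other miRNAs with the same base at that position it had a median of 9.77% with TuD-let-7 (4.15% to 16.6%) and 0.261% in mock. In the same library A6C, inside the seed, was at 4.75% on miR-30a-5p, 9.47% on miR-30b-5p, 4.98% on miR-30c-5p, 3.25% on miR-30d-5p and 4.79% on miR-30e-5p. On the members A6C was at 0.365% to 2.14% in mock and at 0.0416% to 0.133% with TuD-miR-122. Its median in 6 other miRNAs was 6.69% with TuD-let-7, 1.40% in mock and 0.0507% with TuD-miR-122, so mock had it more often than TuD-miR-122. TuD-miR-122 had a different one: G14T was at 3.38% on miR-30a-5p, 2.98% on miR-30d-5p and 2.59% on miR-30e-5p, against 0.181% to 0.249% in mock, and at a median of 3.48% against 0.174% in 9 other miRNAs. In all, 29.3% of such miR-30a-5p reads carried a single substitution with TuD-let-7, 14.5% with TuD-miR-122 and 11.1% in mock, beside medians of 22.4%, 9.99% and 8.94% in 33 other miRNAs.

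**Figure D5:**
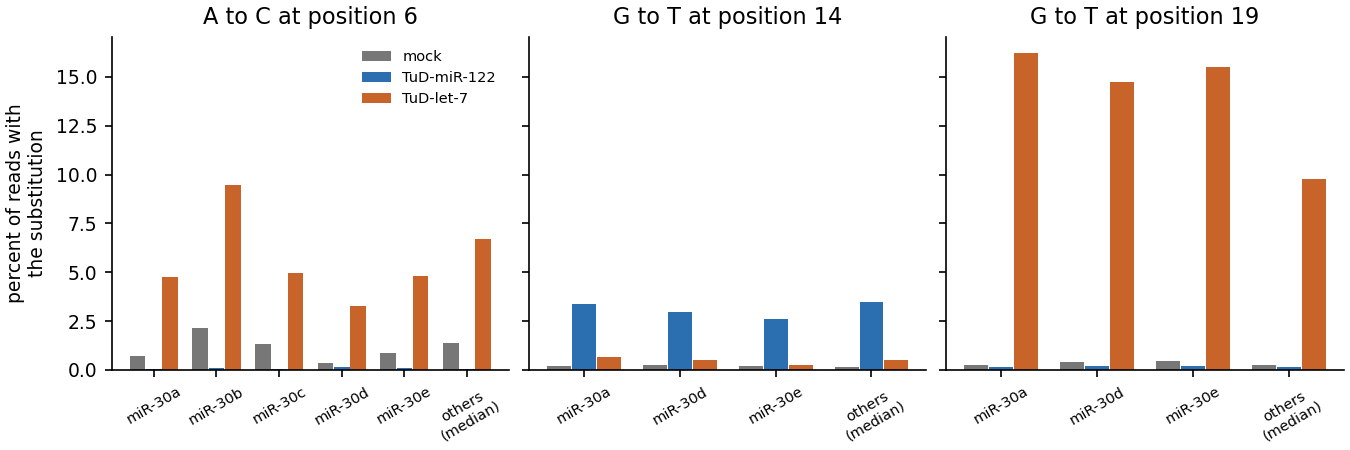
Share of reads with the substitution A6C, G14T or G19T (vertical axis, percent) on the members that have that base, and the median over other miRNAs with the same base at that position, by library. G19T stands at 14.7% to 16.2% on miR-30a, d and e with TuD-let-7 and below 0.5% in the other libraries, and the other miRNAs show it too.

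With tails taken as substitutions where at least 50% of their bases match the precursor at their position, the tailed share of miR-30a-5p was 15.8% in mock, 15.7% with TuD-miR-122 and 15.5% with TuD-let-7. For the 5 members together it was 15.2%, 15.4% and 15.2%. Their trimmed share became 7.90%, 7.24% and 7.99%, and 0 of 5 members then passed the rule in either share, a count not made for other miRNAs. The definition also takes away some tails of only T. After the 22-nt form of miR-30a-5p the precursor goes on with ct, so a tail TT there counts as a substitution. How many such tails were taken away is not given here. Under this definition, chosen after the values were seen, miR-30e-5p had 18.0%, 18.5% and 17.9% of tailed reads, miR-30d-5p 15.5%, 15.02% and 14.9%, miR-30c-5p 13.1%, 14.6% and 14.1%, and miR-30b-5p 7.78%, 7.71% and 7.22%. miR-30b-5p was the member with the fewest tails in each library.

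Summed over the precursors, the 3p arms were tailed more often than the 5p arms, which did not hold for miR-30c-2-3p in the decoy libraries. Together they had 40.4% of tailed reads in mock (37.8 to 43.1), 36.4% with TuD-miR-122 and 37.8% with TuD-let-7, against 21.1%, 20.9% and 29.0% for the 5p arms. Most of these were tails of only T, at 23.9%, 21.5% and 24.3%. The most frequent form of miR-30e-3p in mock, and a leading one of miR-30a-3p, replaces the last base by T and is shown for that reason, below the untailed form of each arm.
miR-30e-3p: ctttcagtcggatgtttacagc
miR-30e-3p with a tail: ctttcagtcggatgtttacagT
miR-30a-3p: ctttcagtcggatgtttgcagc
miR-30a-3p with a tail: ctttcagtcggatgtttgcagT
The tailed form of miR-30e-3p had 29.7% of its reads in mock, 23.99% with TuD-miR-122 and 33.98% with TuD-let-7, and the untailed 22-nt form 19.2%, 24.7% and 17.5%. On miR-30a-3p the tailed form had 20.6%, 17.3% and 21.1% and the untailed one 26.2%, 24.5% and 20.6%. Removal of the last base with a T added and a substitution of that base give the same read and cannot be told apart. miR-30c-2-3p had fewer tails, 19.3%, 16.02% and 17.2%, beside 16.2%, 18.1% and 20.1% on miR-30c-5p, with intervals that overlapped in each library. Its untailed 22-nt form held 55.0%, 48.9% and 61.9% of its reads.

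The 5′ end, which sets the seed, was nearly uniform on the 5p arms and less so on the 3p arms. All 8 RefSeq arm starts on the 4 matched precursors were also the most frequent starts in these reads. Of the untailed reads of the 5 members within 2 nt of that end, 1.27% were shifted in mock (1.18 to 1.36), 1.66% with TuD-miR-122 (1.55 to 1.76) and 1.94% with TuD-let-7 (1.76 to 2.13). The shift was nearly always 1 base inward, and for miR-30e-5p such reads were 1.74%, 1.67% and 2.60%. On miR-30a-3p the start 1 base inward had 34.2% of reads in mock (30.3 to 38.4), 33.5% with TuD-miR-122 and 33.9% with TuD-let-7. On miR-30e-3p, whose first 17 bases are the same, it had 4.02% (1.63 to 8.11) and 5.45% (2.52 to 10.1). With TuD-let-7 it had 0 of 42 reads (0 to 8.41%), an interval that overlaps both. miR-30c-2-3p lay between, at 13.3%, 15.7% and 11.8%. Reads with the family seed at bases 2 to 8, wherever they came from, were 2.30%, 2.16% and 1.69% of all reads, and 95.1%, 91.7% and 88.9% of them were assigned to the 5 members.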

How the data were processed

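Per the labels' protocols, total RNA was extracted from liver with mirVana and RNAs of 18 to 30 nt were gel-purified. The deposited files give raw read counts per distinct insert, not normalised; for adapter removal, filters, an aligner or a build, the sources used here name none. Reads carry no molecular identifiers, so PCR copies count as separate reads. Precursors are those of GENCODE mouse release 21 (GRCm38). Each arm's 5′ end is the start that most untailed reads share, given at least 10 reads, and 477 arms merged to 420. A read was assigned when it matched for at least 16 nt from that end without mismatch, with a tail of up to 5 nt. Thus a 24-nt read with a substitution at position 19 or before was lost, and 0.336% of miRNA reads fitted several arms. Ratios have exact conditional-binomial intervals and shares Clopper-Pearson intervals (Python 3.11, scipy 1.17.1). The scripts were tested on simulated data. By rule, the miRNAs named are the 5 members, their 3p arms and the 3 miRNAs nearest in ratio; miR-122-5p and the other hepatocyte markers, miR-384-5p, miR-133a-5p, miR-155-5p and miR-802-5p are named outside it, the last 3 after their values were seen. Members and lists were chosen with earlier results of these data known. Alternatives changed the scale, control, match length, mismatches, start, tail and trimming rules.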

Additional observations from a re-analysis of the deposited data

Results flagged for a closer look

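Untailed reads that start over 2 nt from both arms of the 6 precursors enter none of the comparisons above. They numbered 47 with TuD-miR-122 (32.4 RPM) and 11 with TuD-let-7 (22.6 RPM), against 15.97 RPM in mock (22 reads). The ratio to mock was 2.03 with TuD-miR-122 (1.20 to 3.53), and 2.002 per read of the library. With TuD-let-7 it was 1.41 (0.618 to 3.04), an interval that holds 1, and the direction depends on the scale: it was 0.835 per read of the library and 0.896 per miRNA read, scales added after the values were seen. Nearly all of them began inside a 5p arm, and reads from the loop were seen on Mir30e alone, 1 in mock and 1 with TuD-miR-122. These counts were not compared with those on other precursors, so it cannot be told whether the ratios are particular to miR-30.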

How the results depend on the processing

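No paired analysis was possible because each group is 1 library and the labels carry no replicate numbers; for the same reason no replicate could be left out. The family ratio of TuD-miR-122 to mock, 0.916, was 0.905 per read of the library, 0.987 per miRNA read, 0.947 with median-of-ratios size factors and 0.789 with TuD-let-7 as control. That of TuD-let-7 to mock, 1.16, was 0.686, 0.736 and 1.12 on those scales, 1.27 with TuD-miR-122 as control and 1.14 with matches of at least 20 nt. No alternative run put a member past 2-fold in level, and the lowest ratio to mock was 0.565, for miR-30c-5p with TuD-let-7. Apart from the exchange of control, the share of all non-target miRNAs past 2-fold was not counted under these alternatives. Summed over the 6 precursors, the folds of the arm ratio against mock stayed inside their counting intervals under every alternative run; the ratio itself, 56.0, 65.6 and 64.4, was 39.9, 46.4 and 44.9 with starts within 2 nt, and 57.8 with TuD-let-7 with 1 mismatch allowed. The 3 members past 5 points in tailed share in TuD-let-7 became 0 with tails up to 2 nt, tails of only A, tails of only T, matches of at least 20 nt, and tails mostly matching taken as substitutions; those in trimmed share became 0 with untailed reads alone and under the same substitution rule. With 1 internal mismatch allowed, 4 passed in each share, and mismatches followed by under 3 matching bases stayed tails. The share of all non-target miRNAs that pass was not counted under these alternatives. The 42.9% and 40.8% given for TuD-let-7 belong to the main definition alone. Direction turned with TuD-let-7 for these differences from mock, in points: with tails of only A, -0.11 (miR-30a), -0.058 (miR-30d) and -0.19 (miR-30e); with tails of only T, -2.02, -1.05 and -1.73, and -1.27 for the 5 members; with tails taken as substitutions, -0.35, -0.60 and -0.084 in tailed share and -0.69 for miR-30a in trimmed share; with untailed reads alone, -2.10, -1.52 and -0.79 in trimmed share, and -1.19 for the 5 members. For miR-30c, tailed share turned to -0.22 with tails of only T, and trimmed share to -0.28 with tails taken as substitutions and -0.73 with untailed reads alone. For miR-30b, tailed share turned under 5 of 8 alternatives and trimmed share under 1 of 5. With TuD-miR-122, at least 1 alternative turned the tailed-share difference of miR-30b, c, d and e and the trimmed-share difference of miR-30b and c. Allowing 1 mismatch raised the family reads by 25.9% in TuD-let-7 and 9.40% in mock, beside 24.3% and 7.71% for all non-target miRNA reads. With tailed reads included, shifted starts were 1.46% in mock and 1.82% with TuD-miR-122. The 3p arms had 5 to 642 reads each.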
